A study of Homo sapiens with 6 samples.

Results

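The genes of cholesterol and fatty acid synthesis form a set of 34, made of 18 sterol enzymes, a group of 6 that joins the sterol regulators with a sterol carrier, and 10 fatty acid enzymes. They were taken by function, from a list of symbols drawn up with earlier results of these data known. A gene was tested where a probe with its symbol had a mean log2 signal of at least 7 over the 6 arrays, and its brightest probe stood for it. This left 32 of the 34 among 10503 named genes tested, of 18665 on the array. FDFT1 was not analysed here, and STARD4 lay under the minimum, at a mean of 6.74. SREBF2 lay just inside it, at 7.17.

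Cholesterol is built from acetyl-CoA through mevalonate, isoprenoid diphosphates and squalene, and the enzymes after squalene close, trim and reduce the sterol rings. Fatty acid synthesis starts from the same acetyl-CoA, which acetyl-CoA carboxylase and fatty acid synthase turn into palmitate. Both branches are driven by the transcription factors SREBP-1 and SREBP-2, which the escort protein SCAP carries out of the endoplasmic reticulum when sterols are low and the INSIG proteins hold back when sterols are high. Androgens are known to raise lipid synthesis genes in LNCaP cells through this same route.

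LNCaP is a single human prostate cancer line, grown from a metastasis in a lymph node and sensitive to androgen. The cells were grown in RPMI with serum and transfected by a Lipofectamine reagent with pre-miR-331-3p, a precursor of the microRNA miR-331-3p, or with pre-miR-NC, a negative control precursor, each at 30 nM, and RNA was taken after 24 h. Replicates A, B and C of each group were hybridized to Illumina Human-6 v3 beadchips, giving 6 arrays. Nothing in the sources ties a letter to a separate culture, so that the p-values cover the spread among these arrays only. Values are the authors' quantile normalized log2 signals, and a difference is the mean of the arrays labelled miR-331-3p minus the mean of the arrays labelled miR-NC. With 3 arrays against 3, an exact permutation test of 1 gene cannot give a two-sided p under 0.1, and the p-values below come from limma, fitted on 16752 probes with Benjamini-Hochberg adjustment over all of them.

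The microRNA that the precursor yields is shown with its seed (bases 2 to 8, the stretch that pairs with targets) in capitals, from RefSeq on GRCh38.p14 at chr12:95308480-95308500, plus strand.
miR-331-3p: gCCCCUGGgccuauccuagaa
Promoters were searched because these genes share SREBP as a driver. In RefSeq (GRCh38.p14), 41 windows from 250 bases before to 50 bases after a start matched 30 of the members, with FASN, SQLE, ACAT2 and FDFT1 unmatched. The core of the sterol regulatory element, the SREBP site, was searched as CACNCCAC on both strands. It stood in 7 of the 41 windows (17.1%), of INSIG1, IDI1, SCD, SC5D, ACACA and SREBF2, against 5.87% of all 35116 promoter windows and 5.62% of those of named genes tested. The CCAAT box, bound by NF-Y, a known partner of SREBP, was searched as CCAAT on both strands and stood in 26 windows (63.4%), against 34.6% of all promoter windows and 36.0% of those of named genes tested. Among the sterol enzymes it stood in 15 of 20 windows (75.0%). The palindrome CACGTG, an E-box that SREBP-1 can also bind, stood in 6 of the 41 windows (14.6%), against 7.26% of all and 9.73% of those of named genes tested. The GC box, searched as GGGCGG on both strands, stood in 36 (87.8%), against 45.0% of all and 65.2% of those of named genes tested. CACGTG can share its last letters with the reverse complement of CACNCCAC, CCAAT can overlap its own reverse complement, and windows of 1 gene can overlap each other, so that windows are not independent. A match is a description of letters and not of binding.

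The sites below are 30-base stretches on the gene's strand, with the motif in capitals (its reverse complement where it lies on the other strand). They come from both regulators that carry the core, from SCD, and from HMGCS1 and SC5D, which had the largest differences of the set. The core is shown at SREBF2 (chr22:41832962-41832991, plus strand), INSIG1 (chr7:155297659-155297688, plus strand) and SCD (chr10:100347108-100347137, plus strand).
SREBF2 core: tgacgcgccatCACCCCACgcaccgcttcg
INSIG1 core: gcgggccggcgGTGGCGTGtgcgcacgtca
SCD core: gcagaggccggGTGGTGTGgtgtcggtgtc
The CCAAT box is shown at HMGCS1 (chr5:43313550-43313579 and chr5:43313495-43313524, minus strand) and at SC5D (chr11:121292703-121292732, plus strand), and the E-box at SC5D (chr11:121292628-121292657, plus strand).
HMGCS1 first CCAAT: agtttccttttgATTGGtagaagccggact
HMGCS1 second CCAAT: ctaccggccgcgATTGGctgtgggagccac
SC5D CCAAT: cgccggtcgctgATTGGctggccgctccag
SC5D E-box: gcgcgcggcgccCACGTGaccgcggagagc

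At RRBP1, the gene whose direction was checked, the difference under the labels is opposite to the study's. Groups are therefore called by their labels throughout. RRBP1, which the study lists as lowered by the precursor, read 10.69, 10.79 and 10.76 on miR-331-3p-labelled arrays (replicates A, B and C, the order used throughout) and 8.71, 8.76 and 8.75 on the miR-NC-labelled arrays. If the labels of the 2 groups were exchanged, every difference given here would change its sign. The line's markers were present: 7 of 8 luminal prostate markers were tested, with a mean level of 10.41 to 10.46 in the miR-331-3p-labelled arrays and 10.25 to 10.27 in the miR-NC-labelled arrays, groups that do not overlap. Of these markers KLK2 and TMPRSS2 were higher, by 0.33 (adjusted p = 0.015 from limma) and 0.53 (adjusted p = 0.0023 from limma). KLK3, which encodes PSA, went the other way, by -0.23, without passing. The call of TMPRSS2 was lost with the methods' t-test, at an adjusted p of 0.073, and that of KLK2 without miR-NC replicate A or B, at 0.0575 and 0.0674. Their part in the differences of the lipid genes was not tested. Of 6 basal, stromal and leukocyte markers, COL1A1 and PECAM1 passed the minimum, at means of 7.24 and 7.10, and KRT5, KRT14 and PTPRC lay under it. The mean level of the 2 was 7.10 to 7.19 in the miR-331-3p-labelled arrays and 7.16 to 7.23 in the miR-NC-labelled arrays. Over the 41 tested probes of the set, the array labelled miR-331-3p replicate C lay farthest from its group's mean in 26, replicate B in 10 and replicate A in 5. In the group labelled miR-NC the counts were 13, 16 and 12. The within-group SD of these probes ran from 0.038 to 0.467, with a median of 0.112.

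Of the 32 tested genes, 3 were higher in the miR-331-3p-labelled arrays and 0 were lower at an adjusted p of 0.05 by limma, where 5.16% of the named genes tested were higher and 4.02% lower (4.30% and 3.66% of all probes tested). The 3 were HMGCS1, SQLE and SC5D, all sterol enzymes. At an unadjusted p under 0.05 by limma, 7 were higher and 0 lower, beside 1326 and 1242 of the 10503 named genes tested. With the methods' t-test 0 passed after adjustment and 5 passed before it, beside 123 and 2088 of the 10503. The groups did not overlap, with the arrays labelled miR-331-3p above, in 8 of the 32, and lay the other way in 0, against 15.0% and 13.8% of named genes tested. The median difference of the 32 was 0.034, beside 0.0044 over all named genes tested. At the brightest probe, no gene of the set differed by more than 1.37-fold.

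**Figure D1:**
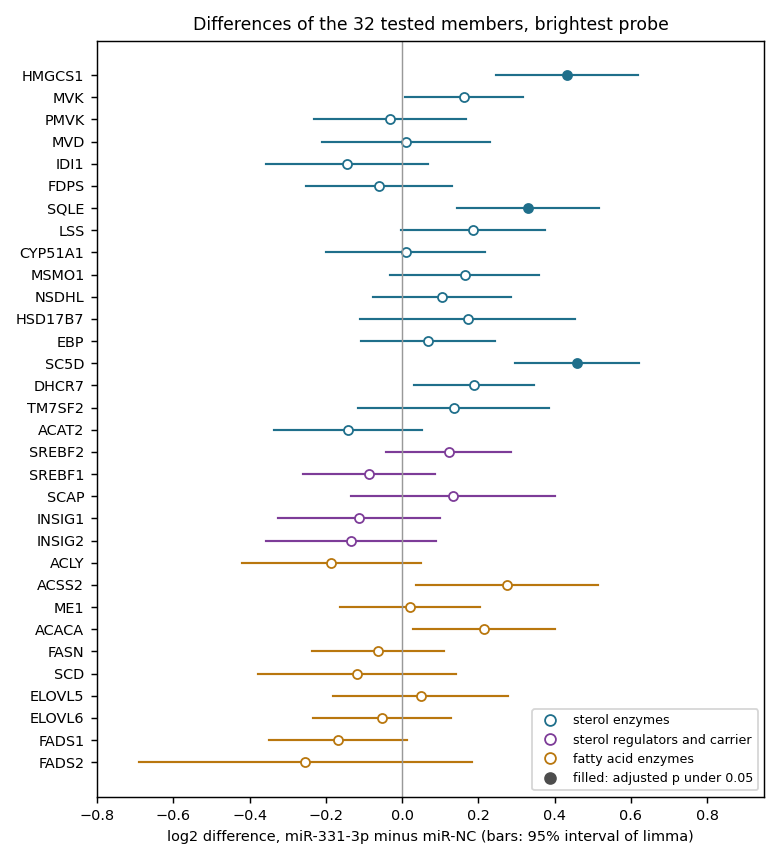
Log2 difference (arrays labelled miR-331-3p minus arrays labelled miR-NC, n = 3 each) of the 32 tested genes at their brightest probe, with limma's 95% intervals as bars and colours for sterol enzymes, regulators and carrier, and fatty acid enzymes. HMGCS1, SQLE and SC5D, drawn filled, passed the adjusted threshold, at 0.43, 0.33 and 0.46, and of the others MVK, DHCR7, ACSS2 and ACACA have intervals above 0 without passing it.

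HMGCS1, the cytosolic HMG-CoA synthase that makes the substrate of mevalonate synthesis, had log2 signals of 11.24, 11.26 and 11.17 in the miR-331-3p-labelled arrays and of 10.74, 10.69 and 10.95 in the miR-NC-labelled arrays. All 3 miR-331-3p-labelled arrays lay above the highest of the miR-NC-labelled arrays, which was replicate C. The mean was 11.23 ± 0.047 in the miR-331-3p-labelled arrays and 10.79 ± 0.14 in the miR-NC-labelled arrays (SD, n = 3 each), a difference of 0.43 (standard error 0.084, 95% interval 0.25 to 0.62, 1.35-fold, adjusted p = 0.010 from limma). The call was lost with the methods' t-test, at an adjusted p of 0.12, and without miR-NC replicate B, at a difference of 0.38 and an adjusted p of 0.057.

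SQLE, squalene epoxidase, which adds the first oxygen on the way to the sterol rings, had signals of 10.25, 10.39 and 10.11 in the miR-331-3p-labelled arrays and 9.88, 9.91 and 9.96 in the miR-NC-labelled arrays. The groups did not overlap, and replicate C was the lowest of the miR-331-3p-labelled arrays. The difference was 0.33 (standard error 0.085, 95% interval 0.14 to 0.52, 1.26-fold, adjusted p = 0.037 from limma). Its second probe gave 9.15, 9.12 and 9.02 in the miR-331-3p-labelled arrays and 8.86, 8.93 and 8.98 in the miR-NC-labelled arrays. Here too the groups did not overlap, but the difference of 0.18 did not pass (adjusted p = 0.20). The call of the brighter probe lay close to the threshold. It was lost with no minimum signal (adjusted p = 0.051), with the mean of its probes (0.25, adjusted p = 0.052), with the methods' t-test (adjusted p = 0.18), and when any array but the C replicate of miR-331-3p was left out, with adjusted p of 0.071 to 0.13. Without that one it stood at an adjusted p of 0.0074.

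SC5D, the sterol desaturase that acts near the end of the pathway, had signals of 11.22, 11.17 and 11.25 in the miR-331-3p-labelled arrays and 10.84, 10.73 and 10.70 in the miR-NC-labelled arrays. The gap between the groups was wider than the range within either. The mean was 11.21 ± 0.044 in the miR-331-3p-labelled arrays and 10.76 ± 0.073 in the miR-NC-labelled arrays (SD, n = 3 each), a difference of 0.46 (standard error 0.074, 95% interval 0.30 to 0.62, 1.37-fold, adjusted p = 0.0034 from limma). Other probes of SC5D lay under the minimum, at means of 6.85 and 6.83, and were not tested. The call held without each array in turn and was lost with the methods' t-test, at an adjusted p of 0.057.

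**Figure D2:**
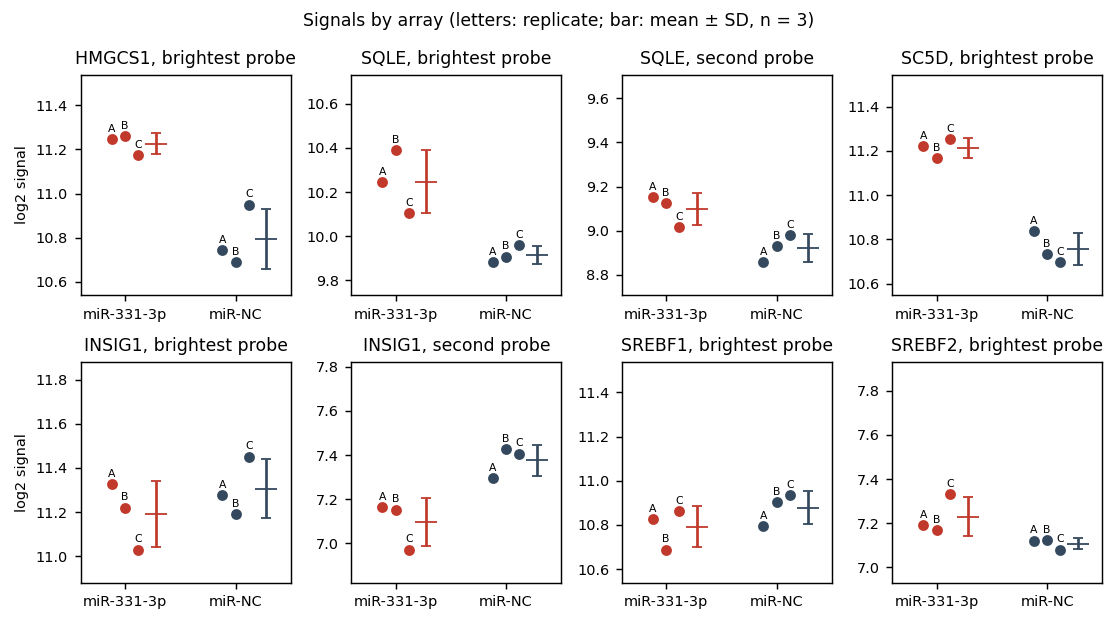
Log2 signals of each array (points lettered by replicate, arrays labelled miR-331-3p on the left and miR-NC on the right, with mean and SD beside them, n = 3) for HMGCS1, SQLE, SC5D and the regulators INSIG1, SREBF1 and SREBF2, each on an axis of equal span. The groups lie apart, higher in the miR-331-3p-labelled arrays, at HMGCS1, SC5D, both probes of SQLE and, near the minimum signal, SREBF2. They lie apart the other way at the second probe of INSIG1, while SREBF1 and the brightest probe of INSIG1 overlap.

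The sterol enzymes as a whole had 3 of 17 tested genes higher and 0 lower, beside 5.16% and 4.02% of named genes tested. Of the 17, 13 had a positive and 4 a negative difference, beside 5360 and 5143 of the 10503 named genes tested. Their median was 0.14, beside 0.0044 over all named genes tested. The median was 0.068 with the mean of all probes of a gene, 0.092 with array weights, and 0.074 to 0.15 without each array in turn, with 0.074 without miR-331-3p replicate C and 0.078 without miR-NC replicate C. Of the 6 enzymes of the mevalonate steps, HMGCS1 alone passed, and the median of the 6 was -0.01. MVK, mevalonate kinase, had 8.43, 8.40 and 8.48 in the miR-331-3p-labelled arrays and 8.27, 8.31 and 8.24 in the miR-NC-labelled arrays, groups that do not overlap, with a difference of 0.16 (adjusted p = 0.20). PMVK, which adds the second phosphate, differed by -0.03, and MVD, which makes isopentenyl diphosphate, by 0.01. IDI1, its isomerase, differed by -0.14, and FDPS, which makes farnesyl diphosphate, by -0.06. None of these 5 passed. ACAT2, the thiolase that makes acetoacetyl-CoA ahead of HMGCS1, had -0.14 at its brighter and 0.05 at its second probe, neither past the test.

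The 10 enzymes that act from squalene onward had positive differences at their brightest probe, except that LSS and MSMO1 stood at -0.012 and -0.017 with the mean of all probes, TM7SF2 at -0.0042 without miR-331-3p replicate C, and CYP51A1 at -0.075 without miR-NC replicate B and -0.026 without miR-331-3p replicate A. At the brightest probe over all arrays, the median of the 10 was 0.17 and the range 0.0092 to 0.46, and SQLE and SC5D were the 2 that passed. Beside them, 5360 of the 10503 named genes tested had a positive difference. Splitting the sterol enzymes into mevalonate steps and steps from squalene onward was not among the planned results. Whether these parts differ was not tested. DHCR7, which reduces the last double bond to give cholesterol, had 10.88, 10.79 and 10.87 in the miR-331-3p-labelled arrays and 10.61, 10.70 and 10.67 in the miR-NC-labelled arrays. These groups did not overlap, the difference was 0.19 (adjusted p = 0.14), and the second probe gave 0.10. LSS, lanosterol synthase, which closes the rings, had probes that disagreed, with no overlap of the groups in either. The brightest had 0.19 (adjusted p = 0.23) and the second -0.21 (adjusted p = 0.21). The remaining LSS probe lay under the minimum and was not tested. Its means were 6.844 in the miR-331-3p-labelled and 6.975 in the miR-NC-labelled arrays, also without overlap.

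Next in the pathway, CYP51A1, the lanosterol demethylase, differed by 0.01, and TM7SF2, a sterol reductase, by 0.14. MSMO1, which oxidizes the methyl groups, differed by 0.16 at its brightest probe. Its second probe read 8.22, 8.19 and 7.07 in the miR-331-3p-labelled arrays and 8.08, 8.04 and 7.95 in the miR-NC-labelled arrays. The array labelled miR-331-3p replicate C stood far below the others there, and the difference of -0.20 was 0.18 without it. The remaining MSMO1 probe lay under the minimum and was not tested. Its means were 6.84 in the miR-331-3p-labelled and 6.93 in the miR-NC-labelled arrays, without overlap. NSDHL, which removes the carboxyl group, differed by 0.10, and HSD17B7, which reduces the ketone left behind, by 0.17. Whether its probe also binds transcripts of a related pseudogene was not tested. EBP, the isomerase of the second ring, differed by 0.07. None of these passed.

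**Figure D3:**
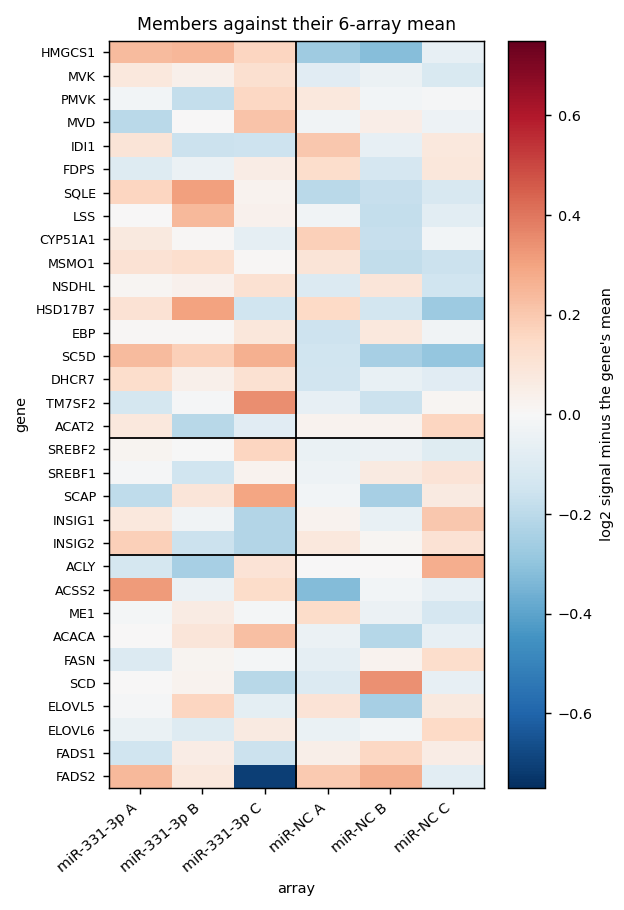
Log2 signal of each tested gene minus its mean over the 6 arrays (rows: genes in pathway order, with lines between sterol enzymes, regulators and carrier, and fatty acid enzymes; columns: arrays labelled miR-331-3p, then miR-NC). Among the genes above their mean in all 3 miR-331-3p-labelled arrays are HMGCS1, SQLE and SC5D, and also MVK, DHCR7 and ACACA, which did not pass the test. FADS2 is far below its mean in miR-331-3p replicate C.

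The regulators did not pass the test in either direction: of 5 tested, 0 were higher and 0 lower by limma (5.16% and 4.02% of all named genes, so that 0 of 5 does not set them apart), 0 lay under an unadjusted p of 0.05, and 0 passed after adjustment of the methods' t-test. Their median difference was -0.087. SREBF2, which encodes SREBP-2, the main driver of the sterol enzymes, read 7.19, 7.17 and 7.33 in the miR-331-3p-labelled arrays and 7.12, 7.12 and 7.08 in the miR-NC-labelled arrays. The groups did not overlap, but all 6 signals lay close to the minimum and the difference of 0.12 had an adjusted p of 0.39. SREBF1, which encodes SREBP-1, the main driver of the fatty acid enzymes, read 10.83, 10.69 and 10.86 in the miR-331-3p-labelled arrays and 10.80, 10.90 and 10.94 in the miR-NC-labelled arrays. The groups overlapped, at a difference of -0.09 (95% interval -0.26 to 0.09), and its second probe gave -0.07.

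SCAP, the sterol-sensing escort of both factors, read 10.20, 10.48 and 10.68 in the miR-331-3p-labelled arrays and 10.37, 10.14 and 10.45 in the miR-NC-labelled arrays, a difference of 0.13 with overlapping groups. INSIG1, which holds SCAP in the endoplasmic reticulum and is itself an SREBP target, read 11.33, 11.22 and 11.03 in the miR-331-3p-labelled arrays and 11.28, 11.19 and 11.45 in the miR-NC-labelled arrays. These groups overlapped, at a difference of -0.11 (95% interval -0.33 to 0.10). Its dimmer second probe read 7.16, 7.15 and 6.97 in the miR-331-3p-labelled arrays and 7.30, 7.43 and 7.41 in the miR-NC-labelled arrays. There the groups did not overlap and the difference was -0.28, with an adjusted p of 0.059 from limma, which passed with array weights (0.047) and with an intensity trend in the variance (0.030). INSIG2, its relative, read 9.33, 9.00 and 8.94 in the miR-331-3p-labelled arrays and 9.24, 9.17 and 9.26 in the miR-NC-labelled arrays, a difference of -0.13 with overlapping groups. STARD4, the carrier that moves cholesterol between membranes, read 6.75, 6.78 and 6.79 in the miR-331-3p-labelled arrays and 6.65, 6.78 and 6.66 in the miR-NC-labelled arrays, and was not tested. Promoters of SREBF2 and INSIG1 hold the core element shown above.

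Of the 10 fatty acid enzymes, 0 were higher and 0 lower by limma, and 0 passed after adjustment of the methods' t-test. Under an unadjusted p of 0.05 by limma lay 2, ACSS2 and ACACA, both with positive differences. Beside them, 1326 of the 10503 named genes tested were higher and 1242 lower at that unadjusted p. With 5.16% and 4.02% of all named genes called, a count of 0 among 10 does not set them apart. Their median difference was -0.058, with 4 positive and 6 negative, and was -0.0059 without miR-331-3p replicate C and -0.10 without miR-NC replicate A. ACLY, which splits citrate into acetyl-CoA, differed by -0.19 at its brighter probe. Its second probe read 11.73, 11.73 and 11.49 in the miR-331-3p-labelled arrays and 11.89, 12.02 and 11.79 in the miR-NC-labelled arrays, and these groups did not overlap, at -0.25 (adjusted p = 0.13). ACSS2, which makes acetyl-CoA from acetate, read 11.12, 10.76 and 10.94 in the miR-331-3p-labelled arrays and 10.47, 10.78 and 10.73 in the miR-NC-labelled arrays. These groups overlapped, at a difference of 0.27 (adjusted p = 0.16).

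ACACA, acetyl-CoA carboxylase, which commits carbon to fatty acids, read 12.04, 12.12 and 12.26 in the miR-331-3p-labelled arrays and 11.99, 11.82 and 11.97 in the miR-NC-labelled arrays. The groups did not overlap, and the difference was 0.21 (adjusted p = 0.16). FASN, fatty acid synthase, differed by -0.06, with a 95% interval of -0.24 to 0.11. SCD, the desaturase that makes oleate, differed by -0.12, with a 95% interval of -0.38 to 0.14. ME1, malic enzyme, which supplies NADPH, differed by 0.02, and the elongases ELOVL5 and ELOVL6 by 0.05 and -0.05, with -0.04 at the second probe of ELOVL6. FADS1, the delta-5 desaturase, differed by -0.17. FADS2, the delta-6 desaturase, read 9.59, 9.42 and 8.63 in the miR-331-3p-labelled arrays and 9.54, 9.61 and 9.26 in the miR-NC-labelled arrays. The array labelled miR-331-3p replicate C was again the lowest, and the difference of -0.25 was 0.036 without it.

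Array by array, the median deviation of the sterol enzymes from their 6-array means was 0.080, 0.030 and 0.084 in the miR-331-3p-labelled arrays and -0.029, -0.126 and -0.061 in the miR-NC-labelled arrays. For the fatty acid enzymes it was -0.014, 0.042 and -0.015 in the miR-331-3p-labelled arrays and -0.020, -0.0083 and -0.0041 in the miR-NC-labelled arrays. The sterol medians lay on opposite sides of 0 in the labelled groups. With values centred on each gene's mean, this largely restates their positive median difference. Such a split was not particular to them. Medians of the list of other elongation and desaturation genes, read below, were 0.041, 0.025 and 0.055 against -0.018, -0.062 and -0.0066. The lists of sterol uptake and of acetyl-CoA and NADPH supply were split the other way. The fatty acid medians lay within 0.042 of 0 on every array. Whether the sterol and the fatty acid enzymes differ from each other was not tested.

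Neighbouring pathways were read from lists in the same way, and their counts stand beside the same 5.16% and 4.02%. Of 10 tested genes (14 listed) of SREBP processing and sterol-regulated degradation, 1 was lower and 0 were higher, with a median of -0.030. This was SEC24A, a COPII coat protein that packages cargo leaving the endoplasmic reticulum, which read 6.96, 6.97 and 6.89 in the miR-331-3p-labelled arrays and 7.24, 7.23 and 7.31 in the miR-NC-labelled arrays. Its difference was -0.32 (adjusted p = 0.019 from limma) at a signal near the minimum, and the call was lost with the methods' t-test and without 4 of the arrays, at adjusted p from 0.053 to 0.091. Of 11 tested genes (15 listed) of sterol uptake, transport, esterification and efflux, 1 was lower and 0 were higher, with a median of -0.13.

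NPC1, which moves cholesterol out of lysosomes, was that gene. It read 10.63, 10.59 and 10.47 in the miR-331-3p-labelled arrays and 11.18, 11.11 and 11.20 in the miR-NC-labelled arrays, groups that lay well apart. The difference was -0.60 (standard error 0.076, 1.51-fold lower, adjusted p = 0.00077 from limma), and the call held with the methods' t-test after adjustment, at 0.048, and without each array in turn. Of 10 tested genes (12 listed) of the isoprenoid branches of the mevalonate pathway, 1 was higher and 0 were lower, with a median of 0.027.

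COQ2, which joins the isoprenoid tail to the ring of coenzyme Q, was that gene, with 10.55, 10.54 and 10.30 in the miR-331-3p-labelled arrays and 9.72, 9.86 and 9.50 in the miR-NC-labelled arrays. The groups did not overlap, and the difference of 0.77 (standard error 0.11, 1.71-fold, adjusted p = 0.0013 from limma) was larger than that of any gene of the set. The call was lost with the methods' t-test, at an adjusted p of 0.10. Of 10 tested genes (14 listed) of other fatty acid elongation and desaturation, 2 were higher and 0 lower, with a median of 0.028. ELOVL1, an elongase of very long chains, read 9.09, 9.18 and 9.26 in the miR-331-3p-labelled arrays and 8.80, 8.77 and 8.86 in the miR-NC-labelled arrays, a difference of 0.36 (adjusted p = 0.014 from limma). ELOVL7, another elongase, read 7.51, 7.58 and 7.66 in the miR-331-3p-labelled arrays and 7.32, 7.22 and 7.25 in the miR-NC-labelled arrays, a difference of 0.32 (adjusted p = 0.025 from limma). In both genes the groups did not overlap, and both calls were lost with the methods' t-test (adjusted p = 0.091 and 0.096) and when some single arrays were left out, at adjusted p up to 0.068 for ELOVL1 and 0.105 for ELOVL7.

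Of 8 tested genes (10 listed) that supply acetyl-CoA and NADPH, 0 passed by limma at their brightest probe, 1 lay under an unadjusted p of 0.05, and 0 passed after adjustment of the methods' t-test, with a median of -0.071. The 1 was IDH1, the cytosolic isocitrate dehydrogenase, named here after its values were seen. Its brightest probe differed by -0.25 (adjusted p = 0.13) and its second probe by -0.45, which passed (adjusted p = 0.025 from limma). At an unadjusted p under 0.05 by limma, 1326 of the 10503 named genes tested were higher and 1242 lower.

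**Figure D4:**
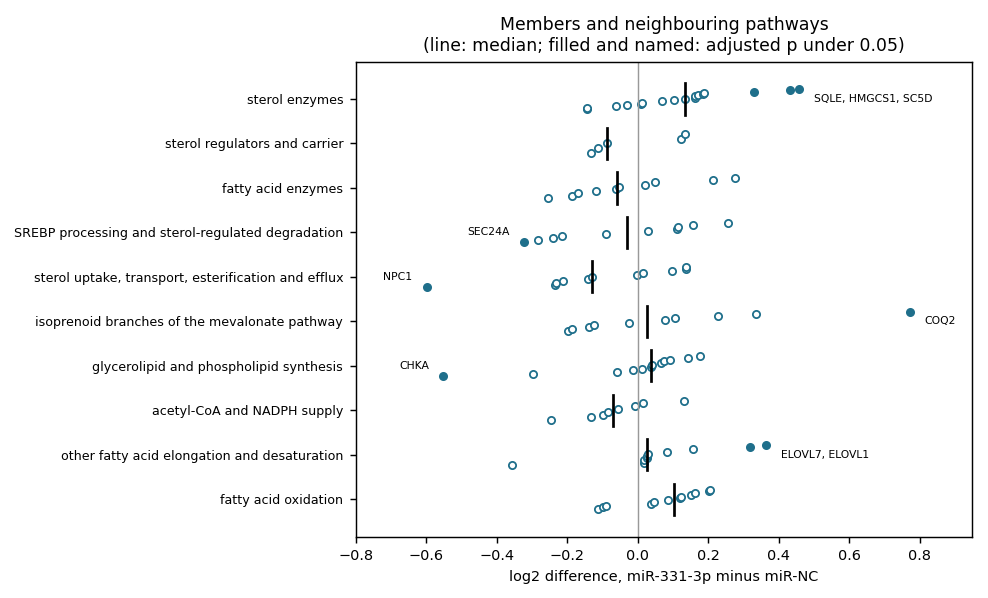
Log2 difference (arrays labelled miR-331-3p minus arrays labelled miR-NC) of each tested gene at its brightest probe, by list, with the list's median as a line and genes past the adjusted threshold filled and named. The sterol enzymes have their median at 0.14 and the fatty acid enzymes at -0.058, and of the genes drawn filled, COQ2, NPC1, CHKA and SEC24A lie outside the range of the set's own genes.

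**Figure D5:**
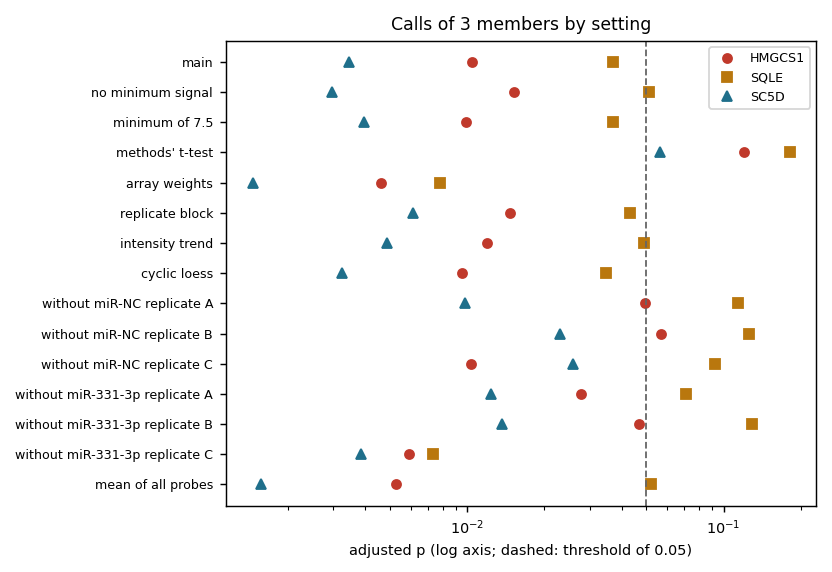
Adjusted p (log axis, threshold of 0.05 dashed) of HMGCS1, SQLE and SC5D under each setting of the test. SC5D lies right of the threshold only with the methods' t-test, at 0.057, while SQLE lies right of it in 8 of the alternatives.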

How the data were processed

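RNA of LNCaP cells was measured on 6 arrays, 3 in each group. The authors deposited log2 signals, background corrected and variance stabilized with lumi and then quantile normalized, with the annotation and array build not given in the sources used here. Raw signals in 12 columns that could not be tied to samples were not used. Of 48802 probes, 27577 had a single symbol (27540 updated by gene identifier), 13 had several and 21212 none. Probes with a mean of at least 7 (16752) were tested with limma 3.58.1 (lmFit, eBayes, no block) in R 4.3.3. Tests were two-sided, and p-values were adjusted over all of these probes by Benjamini and Hochberg. Members and lists were chosen with earlier results of these data known. All members were named, with each array's values for those past the threshold and for the regulators and carrier, and so were other probes over the minimum and up to 4 genes past the threshold from each neighbouring list. IDH1, PCYT2, ACADVL and SLC25A20 were named outside this rule, after their values were seen. Alternatives were no minimum, a minimum of 7.5, array weights, the methods' t-test, an intensity trend, a replicate block, cyclic loess, the mean of a gene's probes and leaving out each array. The fit was tested on simulated data. Promoters were searched with Python 3.11.15 and pandas 2.3.3. Protein and 3' UTR sequences were not used. The number of arrays limits the precision.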

Additional observations from a re-analysis of the deposited data

How the results depend on the processing

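The methods' t-test called 115 probes higher and 49 lower after adjustment in the miR-331-3p-labelled arrays, against 720 (4.30%) and 613 (3.66%) with limma, and 0 of the sterol enzymes were higher, against 3. The differences are the same in both tests, which differ only in the variance estimate and the degrees of freedom. The t-test took each probe's own variance, and limma a variance drawn towards that of all probes, with 11.1 degrees of freedom in all. Without each array in turn, 363 to 765 probes were higher and 263 to 697 lower, and 1 to 3 sterol enzymes were higher, the lowest count coming without miR-NC replicate B. Leaving out any miR-NC array or miR-331-3p replicate B moved both counts of probes by over 1.5 times. The median of the sterol enzymes was 0.14, and 0.092 with array weights, 0.068 with the mean of all probes and 0.074 to 0.15 without each array. That of the fatty acid enzymes was -0.058, and -0.10 to -0.0059 without each array, where leaving out replicate A or C of either group moved it by over 1.5 times.

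Some differences, none past the test, changed sign. MVD stood at -0.028 with array weights, and LSS at -0.012 and MSMO1 at -0.017 with the mean of all probes. Without each array in turn, PMVK ran from -0.12 to 0.050, MVD from -0.094 to 0.11, CYP51A1 from -0.075 to 0.10, TM7SF2 from -0.0042 to 0.24, ME1 from -0.037 to 0.096, SCD from -0.20 to 0.023, ELOVL5 from -0.065 to 0.11, ELOVL6 from -0.10 to 0.0065 and FADS2 from -0.44 to 0.036. Of 447 values of the set's genes under the alternatives, 419 kept their direction and side of the threshold, 11 lost a call and 17 changed sign. The letters A, B and C are not said to pair the arrays, and correlations of same-letter deviations were -0.04, 0.02 and 0.22. Those of different letters ran from -0.17 to 0.20. The replicate block gave 742 probes higher and 670 lower, and HMGCS1, SQLE and SC5D stayed past the threshold. Variance stabilization compresses low signals, which limits what can be read of SREBF2 and STARD4.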

Other observations

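Lists beside lipid synthesis were read in the same way. Of 12 tested genes (15 listed) of glycerolipid and phospholipid synthesis, 1 was lower in the miR-331-3p-labelled arrays and 0 were higher, with a median difference of 0.038. This was CHKA, choline kinase alpha, which starts phosphatidylcholine synthesis. It read 9.18, 9.21 and 9.39 in the miR-331-3p-labelled arrays and 9.89, 9.85 and 9.69 in the miR-NC-labelled arrays, groups that do not overlap. The difference was -0.55 (adjusted p = 0.0028 from limma). Its second probe had -0.11 and did not pass. The call of the brighter probe was lost with the methods' t-test, at an adjusted p of 0.093, and held without each array in turn. PCYT2, which acts in phosphatidylethanolamine synthesis and is named after its values were seen, had a difference of -0.30 at its brightest probe. It did not pass (adjusted p = 0.058 from limma), and neither did the second PCYT2 probe, at -0.049. Of 12 tested genes (14 listed) of mitochondrial fatty acid oxidation, 0 passed by limma in either direction, 2 lay under an unadjusted p of 0.05, and 0 passed after adjustment of the methods' t-test. Both of the 2, named after their values were seen, had positive differences at their brightest probe. These were 0.20 for ACADVL, the very long chain acyl-CoA dehydrogenase, and 0.20 for SLC25A20, the carnitine carrier. At that unadjusted p by limma, 1326 of the 10503 named genes tested were higher and 1242 lower. Other tested probes gave 0.36 and -0.14 for ACADVL, and 0.053 and -0.042 for SLC25A20, none past the adjusted threshold. The median of the list was 0.10, beside 0.0044 over all named genes tested.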
